A study of Mus musculus with 12 samples.

Results

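The genes of the mitochondrial respiratory chain were followed in mouse ventricles under pressure overload. They were taken by symbol: every probe set that names 1 gene beginning with Ndufa, Ndufb, Ndufc, Ndufs, Ndufv, Uqcr or Atp5, running from Cox4 to Cox8, or equal to Sdha to Sdhd, Cyc1 or Cycs, with the probe set of highest mean kept for each gene. That gave 91 genes of the 19938 genes measured. They comprised 34 subunits of complex I, 4 of complex II, 10 genes of complex III and cytochrome c, 19 of complex IV and 17 of complex V, with 7 complex I assembly factors that share the Nduf prefix and are described apart. Ndufa4 and Ndufa4l2 were counted with complex IV, where the Ndufa4 protein is now placed. Cox7c, Ndufaf8, Ndufb1, Ndufb4, Ndufb4b and Ndufb4c had no probe set of their own and are not among the 91.

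The tissue was from male C57BL/6 mice. Right ventricles (RV) were taken 1, 3 and 6 weeks after a haemoclip was closed around the pulmonary artery (PAC), at ages of 13, 15 and 18 weeks, and from sham mice at 3 weeks and an age of 15 weeks. Left ventricles (LV) were taken 3 weeks after the same kind of clip was closed around the aorta (TAC) and from sham mice at 3 weeks, both at 15 weeks of age. Each of the 6 groups had 2 Affymetrix whole-transcript arrays, so n = 2 arrays a group and 12 arrays in all. The study's title asks which genes mark the right heart under outflow obstruction. Whether the 2 arrays of a group are separate animals is not labelled, so p-values here cover only how far these samples varied, which may be technical. All sham tissue was from 3 weeks, so a comparison of PAC at 1 or 6 weeks with sham RV carries a difference in age and in time after surgery as well.

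Values are the deposited log2 expression values. They ran from 1.71 to 14.78, with array medians of 6.32 to 6.40, and arrays of the same group correlated at 0.989 to 0.992. Of the 91 genes, 88 lay at or above the all-gene median level of 6.74, and Cox6b2, Cox7b2 and Cox8c lay below it. The number of arrays limits the precision: the median standard error (SE) of a difference between 2 groups was 0.10 over the 91 genes. The sham RV arrays stood apart from the other 10. Both were above all 10 others for 14.3% of all genes and below all 10 for 12.4%. Their spread over probe sets (SD 2.18 on both) was narrower than that of the other arrays (2.21 to 2.24). The cardiomyocyte identity of the tissue was checked with 10 markers, whose mean level was 13.39 to 13.47 on the PAC arrays, against 13.52 and 13.53 on the sham RV arrays. Those of TAC LV had 13.47 and 13.48, against 13.49 and 13.51 in sham LV.

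The respiratory chain sits in the inner mitochondrial membrane. Complex I takes electrons from NADH and complex II from succinate, and both pass them through ubiquinone to complex III. Cytochrome c carries them on to complex IV, where oxygen is reduced, and the proton gradient built on the way drives the ATP synthase, complex V. The working heart makes most of its ATP this way. A few subunits of complex IV have a heart and skeletal muscle form and a form found in most tissues, encoded by separate genes.

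The promoters of 3 genes that the results turn on are shown, because many nuclear genes of the chain are known targets of the transcription factors NRF1 and GABP, a member of the ETS family. Each runs over the 250 bases before the RefSeq start of the gene (GRCm38.p6), 5′ to 3′ on the gene's strand. Capitals mark the match to the ETS motif (CCGGAAG, read here on the opposite strand) in Atp5e and to the NRF1 motif (GCGCA, any base, then GCGC) in Ndufs5, and Cox8b held neither. Atp5e lies at chr2:174464102-174464351, Ndufs5 at chr4:123718187-123718436 and Cox8b at chr7:140900447-140900696, all on the minus strand.
Atp5e: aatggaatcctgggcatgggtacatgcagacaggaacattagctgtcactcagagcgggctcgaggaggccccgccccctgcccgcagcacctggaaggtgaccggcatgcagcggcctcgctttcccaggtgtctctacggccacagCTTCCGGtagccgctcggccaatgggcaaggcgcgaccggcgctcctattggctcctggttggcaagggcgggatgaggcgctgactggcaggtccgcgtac
Ndufs5: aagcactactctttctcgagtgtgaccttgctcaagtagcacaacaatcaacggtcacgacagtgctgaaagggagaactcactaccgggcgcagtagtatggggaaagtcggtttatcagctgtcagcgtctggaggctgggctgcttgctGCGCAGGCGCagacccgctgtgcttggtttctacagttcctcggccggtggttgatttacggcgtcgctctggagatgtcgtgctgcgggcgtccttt
Cox8b: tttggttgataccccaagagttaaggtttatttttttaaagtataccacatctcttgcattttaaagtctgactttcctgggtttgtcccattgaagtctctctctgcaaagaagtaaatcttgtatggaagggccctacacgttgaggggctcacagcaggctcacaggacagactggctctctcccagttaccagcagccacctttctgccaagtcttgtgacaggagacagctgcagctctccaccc

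The motifs were searched on both strands in the 74 genes of the 91 with a RefSeq promoter. The NRF1 motif was in 13 of them (17.6%), against 4.23% of all 27025 genes with a promoter. The ETS motif was also in 13 (17.6%), against 7.83% of all genes. For the 21 genes with a promoter among the 24 that were lower over the PAC times, each motif was in 4 (19.0%). The estrogen-related receptor motif TCAAGGTCA was in 1 of the 74 (Atp5g3) and the YY1 motif AAGATGGCG in 1 (Atp5j). A match describes the sequence, not a bound site.

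A minority of respiratory chain genes, from each of the 5 complexes, was lower in the obstructed right ventricle than in sham RV. None of the 91 was higher past the threshold (adjusted p at most 0.05, limma with Benjamini-Hochberg adjustment over all 19938 genes), where 9.57%, 3.22% and 5.52% of all genes were higher at 1, 3 and 6 weeks. At 1 week 9 were lower (9.89%, against 8.86% of all genes), a share near the background. At 3 weeks 9 were lower (9.89%, against 2.54% of all genes), and at 6 weeks 14 (15.4%, against 3.73%). The median log2 difference of the 91 genes was -0.12 at 1 week, -0.17 at 3 weeks and -0.15 at 6 weeks, where the median of all genes was -0.05 at each time. Without PAC 1 week array 2 the 1 week median was -0.05, against -0.03 for all genes. Below 0 were 71 of the 91 differences at 1 week (against 57.1% of all genes), 79 at 3 weeks (58.0%) and 78 at 6 weeks (58.0%). Both PAC arrays were below both sham RV arrays for 43 genes at 1 week (47.3%, against 36.7% of all genes), for 59 at 3 weeks (64.8%, against 35.7%) and for 58 at 6 weeks (63.7%, against 35.8%). The counts past the threshold need every array of some groups: there were 0 at each time without sham RV array 2 or without array 2 of that PAC time, and without sham RV array 1 there were 2 genes at 1 week, 0 at 3 weeks and 2 at 6 weeks.

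**Figure D1:**
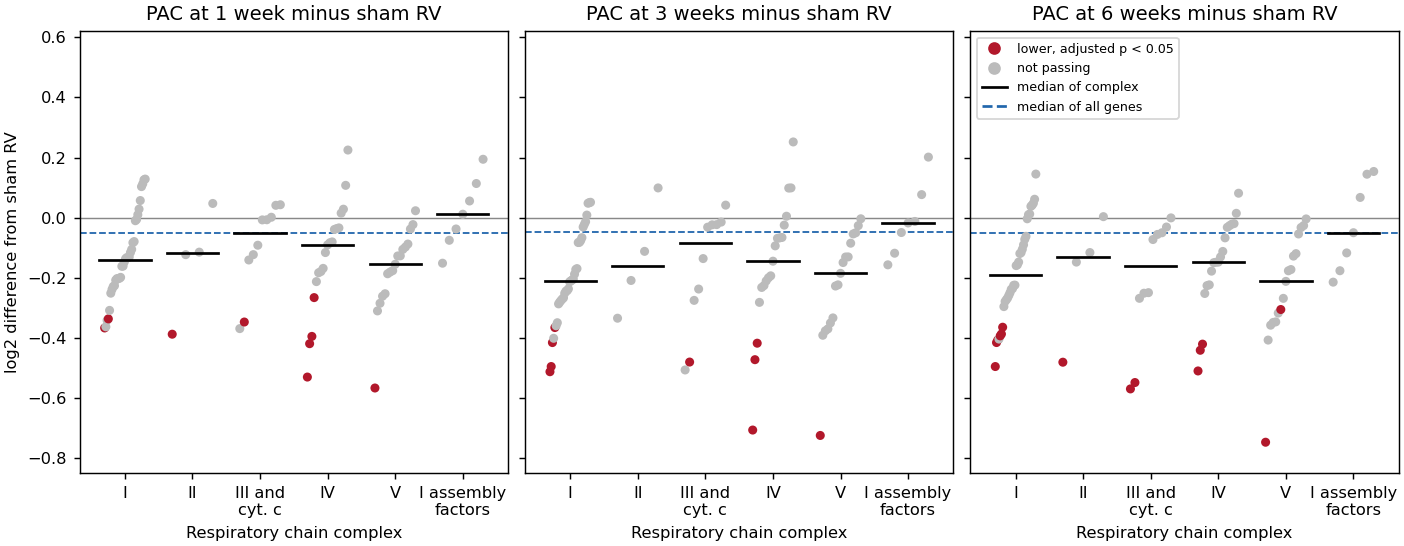
Each point is 1 gene's log2 difference from sham RV (y axis) in PAC RV at 1, 3 and 6 weeks (panels), grouped by complex (x axis), with red for genes lower at adjusted p under 0.05, a black bar for the median of the complex and a dashed line for the median of all genes. The medians of complexes I, II, IV and V lie below that of all genes in every panel. The median of complex III and cytochrome c does so at 3 and 6 weeks, and that of the assembly factors in no panel. Most single genes do not pass the threshold.

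With the 3 PAC times averaged, which sets 6 arrays against 2, 24 of the 91 genes were lower (26.4%, against 12.6% of all genes) and none was higher (against 12.2%). The median difference was -0.15, against -0.05 for all genes. The 24 comprised 10 genes of complex I, 1 of complex II, 2 of complex III, 4 of complex IV and 7 of complex V. Changes were modest: 2 of the 91 genes differed by more than 0.5 on the log2 scale, Atp5e and Cox6b2. The counts rest on both sham RV arrays, since 6 genes were lower without sham RV array 1 and 1, Atp5e, without sham RV array 2. The median was then -0.10 and -0.21. The count was 15, 13 and 13 without array 2 of PAC at 1, 3 and 6 weeks. Across the 3 times 69 genes were below sham RV throughout and 9 above it throughout, and 7 passed the threshold at all 3 times: Atp5e, Cox4i1, Cox6b2, Cox8b, Ndufa12, Ndufs5 and Uqcrq. The 3 comparisons share the same 2 sham RV arrays, so agreement between the times is not independent. Of all genes 57.1%, 58.0% and 58.0% were below sham RV at 1, 3 and 6 weeks. Their shares across all 3 times are not given here, so these counts only describe the 91.

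**Figure D2:**
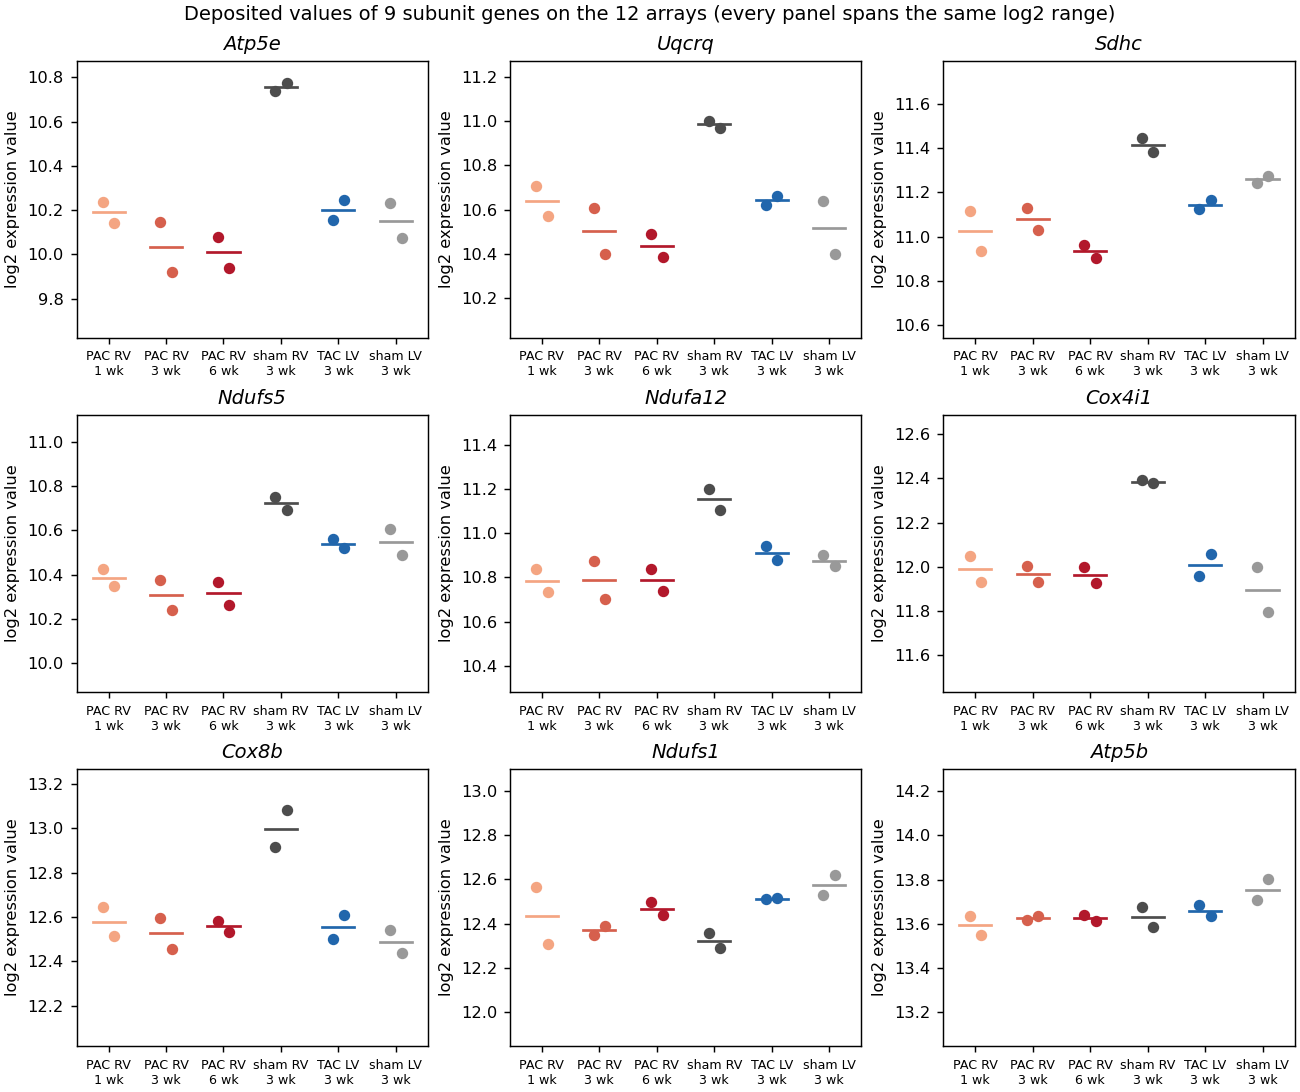
Deposited log2 values (y axis) of 9 genes on the 12 arrays, by group (x axis), with points for single arrays and a bar for the mean of the 2 arrays. For Atp5e, Uqcrq, Sdhc, Ndufs5, Ndufa12, Cox4i1 and Cox8b both sham RV arrays lie above every other array, while Ndufs1 and Atp5b show no such step.

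In complex I, which takes electrons from NADH, 2 genes were lower at 1 week, 4 at 3 weeks and 6 at 6 weeks, all among 34. Over all genes 8.86%, 2.54% and 3.73% were lower at those times, so the 1 week count was under the background share. Over the PAC times the median of the complex was -0.20. Ndufs5 (Entrez gene 595136), an accessory subunit on the intermembrane-space side, had 10.42 and 10.35 at 1 week of PAC, 10.38 and 10.24 at 3 weeks and 10.37 and 10.26 at 6 weeks, against 10.75 and 10.69 in sham RV. All 6 PAC arrays were below both sham arrays. The mean difference was -0.39 ± 0.07 (SE, adjusted p = 0.00798 by limma). A second probe set, shared by Ndufs5 and Ndufs5-ps, showed a smaller difference of -0.18 over the PAC times. It had -0.17, -0.21 and -0.17 at 1, 3 and 6 weeks. Ndufa12, an accessory subunit of the matrix arm, had 10.84 and 10.74 at 1 week, 10.87 and 10.70 at 3 weeks and 10.84 and 10.74 at 6 weeks of PAC, against 11.20 and 11.10 in sham RV. The size was alike at every time, at -0.37, -0.37 and -0.36 (SE 0.09 each). Ndufb8, an accessory subunit of the membrane arm, had 10.79 and 10.58 at 1 week, 10.64 and 10.39 at 3 weeks and 10.62 and 10.45 at 6 weeks of PAC, against 10.98 and 11.08 in sham RV. It passed at 3 weeks (-0.51 ± 0.11, adjusted p = 0.0348) and 6 weeks (-0.49 ± 0.11, adjusted p = 0.0284) and had -0.34 ± 0.11 at 1 week (adjusted p = 0.0588, all by limma).

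The other complex I genes that were lower over the PAC times were Ndufa7 and Ndufb10 (-0.38 each), Ndufs8 (-0.30), Ndufa8 (-0.29), Ndufb11 (-0.25), Ndufab1 (-0.23) and Ndufa6 (-0.22). Ndufs8 carries iron-sulfur clusters and was the single core subunit among them. Ndufab1 is the mitochondrial acyl carrier protein. Of the 28 accessory subunits 9 were lower (median -0.21), and of the 6 core subunits 1 (median -0.14), where 12.6% of all genes were lower. The difference between the classes was not tested. A pair of core subunits of the NADH-oxidising tip did not pass: Ndufv1, which binds the flavin, had -0.19 ± 0.09 (adjusted p = 0.129 by limma) and Ndufs1 0.10 ± 0.08. Ndufs1 read 12.56 and 12.31 at 1 week, 12.35 and 12.39 at 3 weeks and 12.50 and 12.44 at 6 weeks of PAC, against 12.36 and 12.29 in sham RV. Its arrays overlapped at 1 and 3 weeks. At 6 weeks both PAC arrays were above both sham RV arrays (0.15), without passing the threshold. The 7 assembly factors, which help build complex I without being part of it, had a median of -0.00 and none was called. The most distant were Ndufaf1 at 0.16 ± 0.08 and Ndufaf7 at -0.15 ± 0.07.

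Complex II, succinate dehydrogenase, had 1 called gene of 4 over the PAC times, where 12.6% of all genes were lower. Sdhc, a membrane anchor of the enzyme, had 11.12 and 10.94 at 1 week, 11.13 and 11.03 at 3 weeks and 10.96 and 10.90 at 6 weeks of PAC, against 11.45 and 11.38 in sham RV. Every PAC array was below both sham arrays, and the mean difference was -0.40 ± 0.07 (adjusted p = 0.00726 by limma). At 3 weeks alone it was -0.33 ± 0.09 with adjusted p = 0.0511 by limma, just short of the threshold. Sdhd, the other membrane anchor, had 0.05 ± 0.10. The flavoprotein Sdha had -0.11 ± 0.07 and the iron-sulfur subunit Sdhb -0.16 ± 0.08, neither passing.

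In complex III the 2 called genes of the 10 (against 12.6% of all genes lower over the PAC times) encode small accessory subunits. Uqcrq had 10.71 and 10.57 at 1 week, 10.61 and 10.40 at 3 weeks and 10.49 and 10.38 at 6 weeks of PAC, against 11.00 and 10.97 in sham RV. It fell 1.37-fold over the PAC times (log2 -0.46 ± 0.09, adjusted p = 0.00874 by limma). Uqcr11 had 10.16 and 9.97 at 1 week, 10.01 and 9.84 at 3 weeks and 9.89 and 9.84 at 6 weeks of PAC, against 10.42 and 10.45 in sham RV. Its mean difference was -0.48 ± 0.11 (adjusted p = 0.0159 by limma), and of the single times only 6 weeks passed (-0.57 ± 0.14). The large and catalytic parts of the complex did not pass. Uqcrc1 and Uqcrc2, the core proteins, had -0.03 each and the Rieske iron-sulfur protein Uqcrfs1 -0.01 ± 0.10. Cytochrome c1 (Cyc1) had -0.16 ± 0.07 over the PAC times (adjusted p = 0.116 by limma). At 6 weeks it had -0.25 ± 0.09, with both PAC arrays below both sham RV arrays (adjusted p = 0.0898 by limma). Cytochrome c itself (Cycs) had 0.02 ± 0.07.

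Complex IV, cytochrome c oxidase, had 4 of 19 genes lower over the PAC times (against 12.6% of all genes): Cox6b2, Cox8b, Cox4i1 and Cox7a1. Cox8b, the heart and muscle form of subunit 8 in the mouse, had 12.65 and 12.51 at 1 week, 12.60 and 12.46 at 3 weeks and 12.58 and 12.53 at 6 weeks of PAC, against 12.91 and 13.08 in sham RV. Cox8a, the form of most tissues, had 9.57 and 9.60 at 1 week, 9.64 and 9.51 at 3 weeks and 9.51 and 9.47 at 6 weeks, against 9.63 and 9.32 in sham RV. The groups were separate for Cox8b (-0.44 ± 0.08, adjusted p = 0.00726 by limma) and overlapped for Cox8a (0.07 ± 0.09). Cox4i1, the usual form of subunit 4, had 12.050 and 11.930 at 1 week, 12.002 and 11.933 at 3 weeks and 12.001 and 11.928 at 6 weeks of PAC, against 12.391 and 12.379 in sham RV. Its difference was -0.41 ± 0.08 (adjusted p = 0.00799 by limma) and close to that size at each time. Cox4i2, an alternative form described in lung and induced by low oxygen, had 7.43 and 7.35 at 1 week, 7.63 and 7.54 at 3 weeks and 7.60 and 7.49 at 6 weeks, against 7.63 and 7.68 in sham RV. It was lower at 1 week (-0.27 ± 0.08, adjusted p = 0.0477 by limma) and had -0.07 and -0.11 later. The 1 week call did not hold with the replicate block (adjusted p = 0.0508) or with cyclic loess scaling (adjusted p = 0.0526), nor without any 1 of the 4 arrays compared (adjusted p from 0.0511 to 0.217, all by limma).

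Cox7a1, the heart and muscle form of subunit 7a, had 12.90 and 12.71 at 1 week, 12.82 and 12.65 at 3 weeks and 12.84 and 12.75 at 6 weeks of PAC, against 13.00 and 13.03 in sham RV. It was lower over the PAC times by limma (-0.24 ± 0.08, adjusted p = 0.0462). Cox7a2, its partner in most tissues, ran from 10.86 to 10.99 on the PAC arrays, against 11.07 and 10.85 in sham RV, and had -0.05 ± 0.08. Cox6a2, the heart and muscle form of subunit 6a, ran from 11.88 to 12.10 on the PAC arrays, against 12.19 and 12.15 in sham RV. All 6 PAC arrays were lower, but the difference did not pass (-0.22 ± 0.08, adjusted p = 0.0627 by limma). Cox6a1, its partner, had -0.03 ± 0.11. Cox6b2, known as the testis form of subunit 6b, had 5.80 and 5.72 at 1 week, 5.75 and 5.41 at 3 weeks and 5.85 and 5.71 at 6 weeks of PAC, against 6.27 and 6.31 in sham RV. These values are below the all-gene median of 6.74, so the difference of -0.58 ± 0.10 (adjusted p = 0.00668 by limma) was read from a dim probe set. Cox5a, a subunit common to all tissues, had -0.17 ± 0.07 and did not pass (adjusted p = 0.0966 by limma).

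Within each array the first-named form of a pair was set against its partner, over 6 PAC arrays and 2 sham RV arrays. The log2 ratio of Cox8b to Cox8a changed by -0.52, that of Ndufa4 to Ndufa4l2 by -0.31 and that of Cox4i1 to Cox4i2 by -0.26, with every PAC array below both sham arrays (exact permutation p = 0.0714 each, two-sided). The ratio of Cox7a1 to Cox7a2 changed by -0.19 (exact p = 0.143) and that of Cox6a2 to Cox6a1 by -0.19 (exact p = 0.214), with overlap. The smallest p this design allows is 0.0714, so none of the 5 pairs could pass 0.05. Ndufa4l2, a hypoxia-inducible relative of Ndufa4, had 0.19 ± 0.08 over the PAC times and Ndufa4 -0.13 ± 0.07, and neither passed. For Cox8b over Cox8a the SD of the ratio was 0.07 over the 6 PAC arrays and 0.34 over the 2 sham RV arrays.

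**Figure D3:**
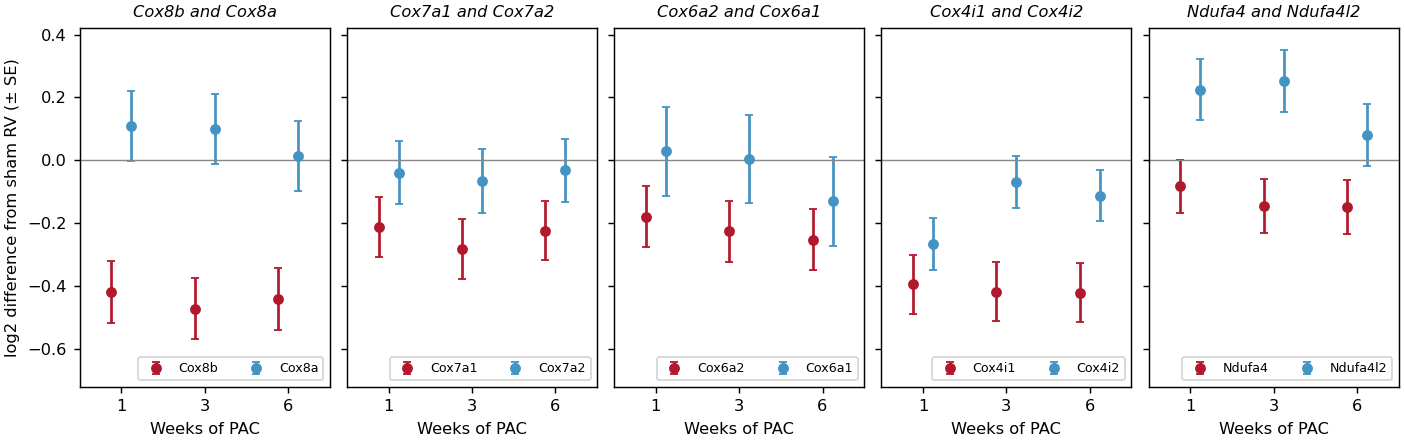
Log2 difference from sham RV (y axis, bars ± SE from limma) at 1, 3 and 6 weeks of PAC (x axis) for 5 pairs of related subunits, with the first-named form in red and its partner in blue. Cox8b and Cox4i1 lie near -0.4 at every time while Cox8a lies slightly above 0, and Cox4i2 lies at -0.27 at 1 week and nearer 0 later.

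Complex V, the ATP synthase, had all 17 genes below sham RV over the PAC times (median -0.20), against 58.5% of all genes. Of the 17, 7 passed, where 12.6% of all genes were lower. Atp5e (Entrez gene 67126), the epsilon subunit of the central stalk, had 10.24 and 10.14 at 1 week, 10.15 and 9.92 at 3 weeks and 10.08 and 9.94 at 6 weeks of PAC, against 10.74 and 10.77 in sham RV. No array of any other group reached the sham RV values. It fell 1.60-fold (log2 -0.68 ± 0.08, 95% interval -0.87 to -0.49, adjusted p = 0.00323 by limma), the largest change of the 91 genes. Atp5o, a peripheral stalk subunit, had 11.93 and 11.74 at 1 week, 11.83 and 11.71 at 3 weeks and 11.86 and 11.74 at 6 weeks of PAC, against 12.24 and 12.06 in sham RV (-0.34 ± 0.09). Atp5j2, the f subunit of the membrane part, had 12.27 and 12.19 at 1 week, 12.22 and 12.09 at 3 weeks and 12.20 and 12.06 at 6 weeks of PAC, against 12.48 and 12.50 in sham RV (-0.32 ± 0.08). For both genes all PAC arrays were below the sham arrays, and both passed over the mean of times but at no single time. The others called were the c-ring gene Atp5g2 (-0.36), the membrane subunit Atp5l (-0.31), the peripheral stalk subunit Atp5h and the delta subunit Atp5d (-0.20 each), of which Atp5d also passed at 6 weeks.

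The catalytic head of the ATP synthase did not pass. Atp5b, the beta subunit, had 13.63 and 13.55 at 1 week, 13.62 and 13.64 at 3 weeks and 13.64 and 13.61 at 6 weeks of PAC, against 13.68 and 13.58 in sham RV, and the difference was -0.02 ± 0.07. The alpha subunit gene Atp5a1 had -0.10 ± 0.07. Atp5g1, Atp5g2 and Atp5g3 encode the same mature c subunit, and their differences were -0.25 ± 0.09, -0.36 ± 0.10 and -0.16 ± 0.07, of which only Atp5g2 passed (adjusted p = 0.0265 by limma, against 0.0575 and 0.112).

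No respiratory chain gene differed between 6 weeks and 1 week of PAC past the threshold, where 0.0953% of all genes did, and none had an unadjusted p under 0.05. The median difference was -0.05, with 65 of 91 genes lower at 6 weeks. It was 0.03 without PAC 1 week array 1. Uqcrq had -0.20 ± 0.11 (adjusted p = 0.606) and Atp5e -0.18 ± 0.10 (adjusted p = 0.637, both by limma), with both 6 week arrays below both 1 week arrays in each. Such a separation was seen for 26.4% of the 91 genes, and 2.20% were separate in the other direction. The shares over all genes are not given here, for these counts or for the 65 genes. A further fall with time was therefore not shown.

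In the left ventricle none of the 91 genes differed between TAC and sham LV by limma, and 0 of all 19938 genes did (0%). The median was -0.01, with 50 of 91 below 0. Of the 91 genes only Ndufb3, an accessory subunit of complex I, had an unadjusted p under 0.05 in limma (0.30 ± 0.09, adjusted p = 0.985). A threshold of 0.05 without adjustment can let a gene of 91 pass with no difference at all. The Ndufb3 values were 9.33 and 9.22 in TAC LV, against 9.05 and 8.90 in sham LV, without overlap. Both TAC arrays lay above both sham LV arrays for 9.89% of the 91 genes and below them for 24.2%. The shares over all genes are not given here. Atp5e had 10.16 and 10.25 in TAC LV, against 10.23 and 10.07 in sham LV, and its 95% interval ran from -0.18 to 0.28. Cox8b had 12.50 and 12.61 in TAC LV, against 12.54 and 12.44 in sham LV, with an interval of -0.15 to 0.28. Cox4i1 had 11.958 and 12.057 in TAC LV, against 11.998 and 11.794 in sham LV, with an interval of -0.10 to 0.32.

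The difference between the RV and LV responses at 3 weeks was tested itself, as PAC minus sham RV less TAC minus sham LV. None of the 91 genes passed, nor did any of all genes (0%). The median was -0.13, against -0.02 for all genes, and 19 of the 91 (20.9%) had an unadjusted p under 0.05 in limma, against 2381 of all 19938 genes (11.9%). Atp5e had -0.77 ± 0.15, Uqcr11 -0.72 ± 0.19, Uqcrq -0.60 ± 0.15, Cox8b -0.54 ± 0.14 and Cox4i1 -0.53 ± 0.13, each with adjusted p = 0.354 by limma. A lower response of these genes in the right than in the left ventricle was therefore not shown past the threshold.

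**Figure D4:**
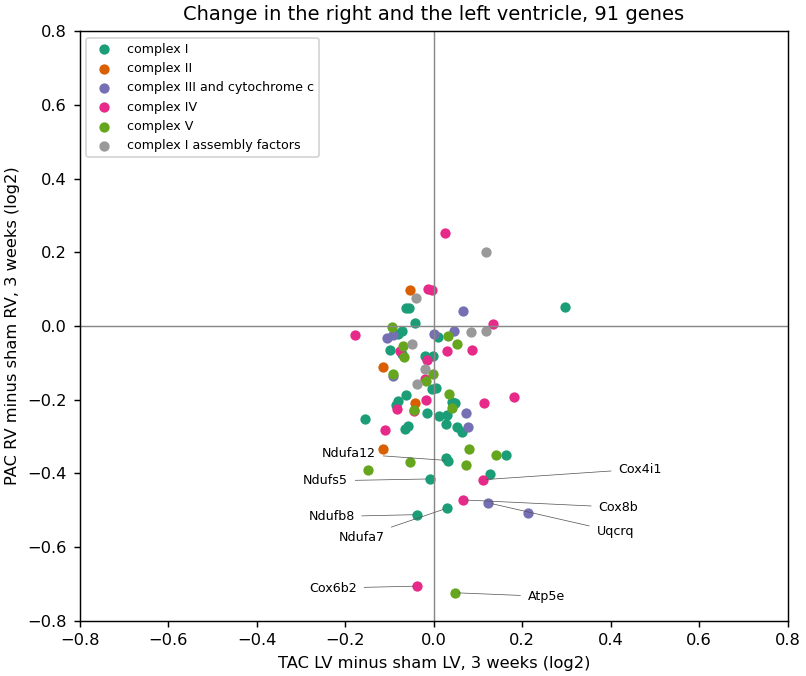
Log2 difference of PAC RV from sham RV at 3 weeks (y axis) against that of TAC LV from sham LV (x axis) for the 91 genes, coloured by complex, with the 9 genes lower in PAC at 3 weeks named. The points spread from 0.25 to -0.72 along the y axis and from -0.18 to 0.30 along the x axis, and the 9 named genes lie between -0.04 and 0.12 on the x axis.

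The sham chambers differed too. Sham RV was higher than sham LV for 1 gene of the 91, Atp5e (0.60 ± 0.10, 1.52-fold, adjusted p = 0.0453 by limma), where 0.411% of all genes differed, and 0.0752% were higher. Cox8b (0.51 ± 0.10) and Cox4i1 (0.49 ± 0.09) lay just above the threshold (adjusted p = 0.0504 each), followed by Uqcr11 (0.62 ± 0.14, adjusted p = 0.0646, all by limma). Without any 1 of the 4 sham arrays the count was 0. The median over the 91 was 0.07. For the 24 genes lower over the PAC times, both sham RV arrays lay above all 10 other arrays in 23, the LV arrays included. The same held for 31 of the 91 (34.1%, against 14.3% of all genes). Since those 24 were chosen as low against sham RV, their count describes them and supports nothing. Marker lists differed between the sham chambers as well. The atrial list had a median difference of -1.77, with mean levels of 6.67 and 5.86 on the sham RV arrays, against 7.12 and 8.53 on the sham LV arrays. All 6 macrophage markers were lower on both sham RV arrays than on both sham LV arrays (median -0.24). No marker of either list passed by limma, and their part in the chamber difference was not tested. Set against sham LV instead, the 24 genes had median differences of -0.02, -0.09 and -0.09 in PAC at 1, 3 and 6 weeks, against 0.26 in sham RV. The choice of the 24 as low against sham RV favours a high sham RV value, so their medians also only describe them. The 91 genes had -0.06, -0.10 and -0.10 in PAC, against 0.07 in sham RV. All genes had -0.03, -0.02 and -0.02 in PAC, against 0.02 in sham RV. Whether the sham RV level is that of the chamber or of these 2 arrays cannot be told apart here.

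**Figure D5:**
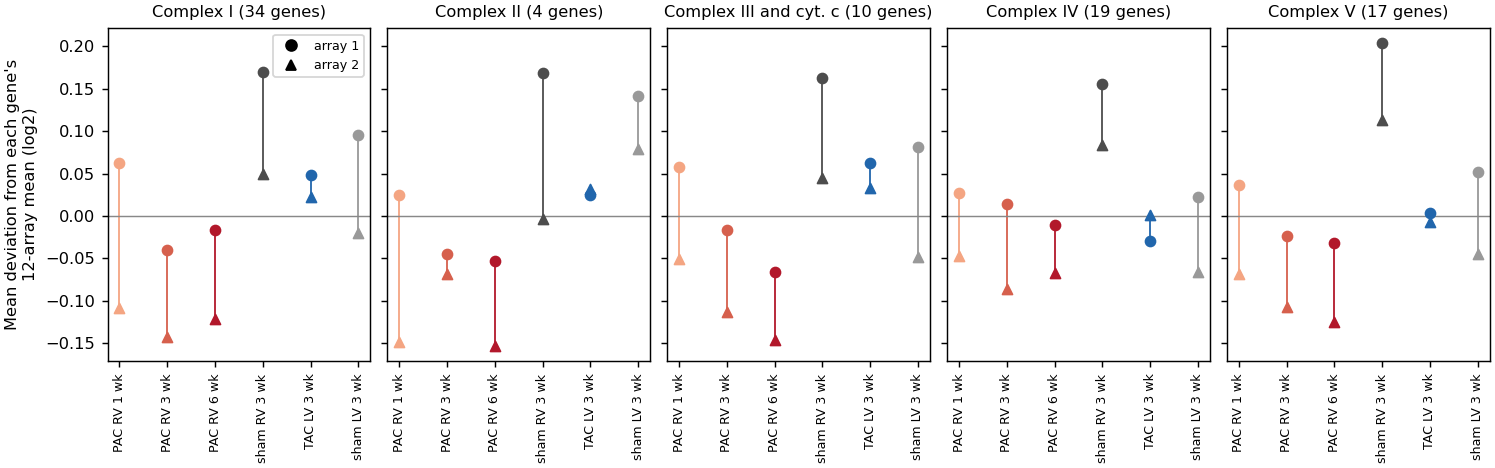
Mean deviation of each complex's genes from their own 12-array means (y axis, log2) on every array, by group (x axis), with circles for array 1 and triangles for array 2. In complexes IV and V both sham RV arrays lie above all others, while in complexes I, II and III sham RV array 2 lies within the range of other groups, and array 2 is lower than array 1 in most groups.

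Arrays of a group also differed among themselves. The mean over the 91 genes was lower on array 2 than on array 1 in every group, by 0.01 in TAC LV and by 0.08 to 0.13 in the others. Averaged over complex V, the deviation from the 12-array mean was 0.04 and -0.07 at 1 week, -0.02 and -0.11 at 3 weeks and -0.03 and -0.13 at 6 weeks of PAC, against 0.20 and 0.11 in sham RV. The 2 groups of arrays did not overlap there. For complex II it was 0.03 and -0.15, -0.04 and -0.07, and -0.05 and -0.15 at those times, against 0.17 and -0.00 in sham RV, with overlap.

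The wider pathway was counted from lists. Of 13 subunits encoded in mitochondrial DNA, 2 were measured singly, and neither COX2 nor ND3 differed from sham RV over the PAC times (0.05 ± 0.06 each). Among 43 assembly factors, including the 7 above, 3 were higher and 3 lower, with a median of -0.00, where 12.2% of all genes were higher and 12.6% lower. The higher ones were Sdhaf4 (0.41 ± 0.09), which acts on Sdha, Cox19 (0.41 ± 0.11) and Coa5 (0.27 ± 0.07). The lower ones were Uqcc2 (-0.43 ± 0.11), a complex III factor, Sdhaf1 (-0.36 ± 0.08) and the copper chaperone Cox17 (-0.32 ± 0.08). Sdhaf4 had 7.71 and 7.73 at 1 week, 7.73 and 7.54 at 3 weeks and 7.58 and 7.54 at 6 weeks of PAC, against 7.40 and 7.04 in sham RV.

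Of 17 regulators of mitochondrial gene expression 1 was lower and none was higher (median 0.00). Over all genes 12.6% were lower and 12.2% higher. The calls among these regulators, the citrate cycle genes and the ubiquinone genes were fewer than those shares. Esrra, an orphan nuclear receptor that works with the coactivator PGC-1α, had 8.53 and 8.35 at 1 week, 8.45 and 8.29 at 3 weeks and 8.59 and 8.41 at 6 weeks of PAC, against 8.83 and 8.75 in sham RV. The groups were separate, and the mean difference was -0.35 ± 0.08 (adjusted p = 0.0174 by limma). Ppargc1a, which encodes PGC-1α, had -0.15 ± 0.15, Ppara -0.27 ± 0.11, and the mitochondrial transcription factors Tfam and Tfb2m 0.20 ± 0.09 and 0.20 ± 0.08, none passing. In the citrate cycle, which feeds the chain with NADH and succinate, 1 of 13 genes was lower, fumarase Fh1 (-0.31 ± 0.09, adjusted p = 0.0282 by limma), and 12 were below 0 (median -0.13). Idh3g had -0.23 ± 0.08 (adjusted p = 0.0519 by limma). Of 12 genes for the supply of ubiquinone 1 was higher, Coq10b (0.53 ± 0.08).

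Markers of other cells also differed between PAC RV and sham RV. Over the PAC times 6 of 8 fibroblast markers were higher (median 0.89), 5 of 6 endothelial markers (median 0.26), 3 of 6 smooth muscle and pericyte markers (median 0.17), 1 of 6 macrophage markers (median 0.54) and 3 of 4 atrial muscle markers (median 2.56). Of all genes 12.2% were higher and 12.6% lower over the mean of times, so the macrophage count was near the background. The mean level of the fibroblast list was 9.96 to 10.85 on the PAC arrays, against 9.22 and 9.24 in sham RV. That of the atrial list was 7.40 to 10.23 on the PAC arrays, against 6.67 and 5.86 in sham RV, with the highest value on PAC 1 week array 2. By time, the respiratory chain had 9, 9 and 14 genes lower at 1, 3 and 6 weeks. Higher at those times were 4, 1 and 0 of the 4 atrial markers, 6, 5 and 2 of the 8 fibroblast markers and 6, 0 and 0 of the 6 macrophage markers. Endothelial markers numbered 2, 4 and 0 of 6, and smooth muscle and pericyte markers 2, 3 and 2 of 6. The shares over all genes also differed between the times. They were 9.57%, 3.22% and 5.52% higher and 8.86%, 2.54% and 3.73% lower at 1, 3 and 6 weeks. Of 10 cardiomyocyte markers 2 were lower over the PAC times, Tnni3 (-0.30 ± 0.07) and Ryr2 (-0.24 ± 0.07), and their median was -0.06. The part of these lists in the lower respiratory chain values was not tested, and in pieces of whole ventricle fewer cells of a type and less RNA per cell cannot be told apart. Brown fat (4 genes) had 1 marker higher and 1 lower, and skeletal muscle (5 genes) 1 higher and 2 lower, the higher one being Acta1, which the stressed heart also expresses.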

How the data were processed

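Gene expression was measured on 12 Affymetrix whole-transcript arrays of mouse ventricle. The deposited log2 values were made by the authors with RMA, which corrects background, quantile-normalises the arrays and summarises probes, in Affymetrix Power Tools, per the submitters' processing notes. Library files, software versions and the genome build were not given in the sources used here. Probes were named through GEO's platform annotation. Of 35556 probe sets 21789 name 1 gene, 1621 several and 12146 were not listed. A gene with several kept its brightest probe set (highest mean over the arrays), leaving 19938 genes. Of the 91 respiratory chain genes 18 had several probe sets, and for 1 of them the probe sets differed in sign over the PAC times. RMA draws low values toward a floor and equalises the arrays' distributions, so a difference is relative to the other genes of an array.

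A limma model (version 3.58.1, R 4.3.3) held a mean for each of the 6 groups over all 12 arrays. It left 6 residual degrees of freedom, to which the variance prior added 4.60. There were 8 comparisons, with Benjamini-Hochberg adjustment over all genes within each. The threshold was an adjusted p of 0.05. The steps were tested on simulated data. An exact permutation test of 2 arrays against 2 cannot go below p = 0.33. Alternatives were cyclic loess scaling, the mean over a gene's probe sets, leaving out genes below the median level, a trended and robust prior, the replicate number as a block, and leaving out each array. Deviations of arrays of the same number correlated at -0.24 to 0.37 over 15 pairs of groups, with 5 pairs over 0.1. Since not every pair passed, the numbers were not used as pairs, although the mean of the 91 genes was lower on array 2 in every group.

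The genes, marker lists and pathway lists were chosen with earlier results of these data known. Genes named are those passing the threshold in any comparison, the 2 with the largest change in each complex, and set lists of catalytic subunits and tissue-specific pairs. Sdhd, Uqcrc2, Ndufb3, Cox19, Coa5, Ppargc1a, Acta1 and the genes with chamber or time differences that did not pass were named after their values were seen. Promoter sequences are from RefSeq (GRCm38.p6). No protein sequences were used.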

Additional observations from a re-analysis of the deposited data

Results flagged for a closer look

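In 4 of the 91 respiratory chain genes (4.40%) both PAC arrays lay below both sham RV arrays at 3 weeks while both TAC arrays lay above both sham LV arrays. The same held for 686 of all 19938 genes (3.44%), so the share of these genes was near the background. The difference between the responses was -0.51 log2 for Ndufb2, -0.37 for Cox5a, -0.35 for Ndufb11 and -0.26 for Ndufa6. Ndufb2, an accessory subunit of complex I, had 8.60 and 8.28 in PAC RV, against 8.90 and 8.67 in sham RV, and 8.80 and 8.69 in TAC LV, against 8.65 and 8.51 in sham LV. Cox5a had 10.95 and 10.98 in PAC RV, against 11.24 and 11.08 in sham RV, and 11.14 and 11.15 in TAC LV, against 11.03 and 10.90 in sham LV. None of the 4 differences passed the threshold when tested as an interaction in limma. They were picked out because no arrays overlapped.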

How the results depend on the processing

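The direction of the median over the 91 genes held in every comparison of PAC with sham RV under every alternative run. Counts below are genes that were lower, out of 9, 9, 14 and 24 as reported for PAC at 1, 3 and 6 weeks and for the mean of times, and the cause of each shift was not tested. A trended and robust prior gave 15, 18, 22 and 34. The replicate block gave 12, 17, 19 and 31, of which 17 is over 1.5 times the count as reported. Leaving out genes below the median level gave 15 at 3 weeks, and it and the trended prior each gave 6 in place of 1 for sham RV against sham LV. Leaving out each array in turn gave 0 to 12 at 1 week (0 without PAC 1 week array 2 or sham RV array 2, 2 without sham RV array 1), 0 to 7 at 3 weeks (0 without PAC 3 week array 2 or either sham RV array), 0 to 10 at 6 weeks (0 without PAC 6 week array 2 or sham RV array 2, 2 without sham RV array 1) and 1 to 33 for the mean (15, 13 and 13 without array 2 of PAC at 1, 3 and 6 weeks, 6 and 1 without sham RV array 1 or 2). For the sham chambers it gave 0 throughout. The median at 1 week then ran from -0.184 to -0.0459, that of 6 weeks against 1 week of PAC from -0.108 to 0.0259, and that of the difference between ventricles from -0.210 to -0.0945. Without PAC 1 week array 2 and sham LV array 2 together, an alternative chosen after seeing the data for their atrial markers, 0 genes were lower at 1 week (median -0.0459), 15 over the mean of times and 0 differed between sham chambers. Over all genes, calls in either direction numbered 3675, 1148, 1844 and 4941, against 2143, 557, 1253 and 3084 with cyclic loess, and ran from 227 to 4557, 3 to 796, 3 to 1840 and 296 to 6235 when 1 array was left out. A lone array left in a group was assumed to vary like the other groups. Of 57 calls of named genes 52 were kept with cyclic loess, 56 with the replicate block, and 10 and 1 without sham RV array 1 or 2. The probe sets are at or above the all-gene median level for 88 of the 91 genes, and precision is limited by 2 arrays a group.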

Other observations

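Cox7c and Ndufb4, subunits of complexes IV and I, were measured only by probe sets shared with a second gene, so their values are not those of 1 gene. Over the PAC times the 3 probe sets of Cox7c, shared with Gm12338, differed from sham RV by -0.06, -0.06 and -0.11, and the 2 of Ndufb4, shared with Ndufb4b, by -0.18 each. Among the mitochondrial ribosomal proteins, which translate the subunits encoded in mitochondrial DNA, 9 of 77 were lower and 3 higher over the PAC times, with a median of -0.08. Over all genes 12.6% were lower and 12.2% higher, so the lower share of this family was near the background. The lowest was Mrpl12 at -0.47. Among cytosolic ribosomal proteins 5 of 60 were lower and none was higher (median -0.05), fewer than the shares over all genes. Differences between these families and the respiratory chain were not tested.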
